A study of Homo sapiens with 6 samples.

Results

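The cholesterol and fatty acid synthesis genes described here are 32 genes chosen by name for their role in lipid synthesis. Members were found as the non-control probes whose gene name in the scanner files is one of the 32 symbols, or another symbol of the same gene, and 32 of 32 were found among 29123 gene names, with 54 of the 41000 probes on the array. SC4MOL is listed as MSMO1 and SC5DL as SC5D. A total of 15 members have 1 probe and 17 have more, and each gene is described by its brightest probe, the one with the highest mean log2 intensity over all 6 arrays.

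The arrays compare ovarian cancer cells that differ in Hic-5, a focal adhesion and steroid receptor coactivator protein encoded by TGFB1I1. In SKOV3, an established ovarian adenocarcinoma line, RNA of the clones sh-S1 and sh-S2, stably transduced with pLKO.1-puro lentivirus carrying Hic-5 shRNA and selected with puromycin, was hybridized with RNA of a Ctrl clone that received a scramble sequence in the same vector, on 2 dye-swapped arrays per clone. In A2780s, another established ovarian cancer line, RNA of a stable clone transfected with human Hic-5 in the pCMV6 vector (pCMV-Hic-5, driven by the CMV promoter) was hybridized with RNA of a Ctrl clone that received the empty vector, on 2 dye-swapped arrays, both clones having been selected with neomycin. Each of these RNAs stands for 1 selected clone, both SKOV3 clones share 1 Ctrl RNA, and A2780s has 1 pair of RNAs.

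Cells make cholesterol from acetyl-CoA through mevalonate, the isoprenoid pyrophosphates, squalene and a series of sterols, and they make fatty acids by carboxylating acetyl-CoA, extending the chain, and then elongating and desaturating it. Both routes are controlled by the sterol regulatory element binding proteins (SREBPs), transcription factors held in the endoplasmic reticulum with SCAP by the INSIG proteins while sterols are plentiful, and released to the nucleus when sterols run low. SREBP1, encoded by SREBF1, acts mainly on fatty acid genes and SREBP2, encoded by SREBF2, mainly on cholesterol genes, usually together with the factors NF-Y, which binds CCAAT, and Sp1, which binds GC boxes.

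The promoters of the 5 members with the largest changes in SKOV3 are shown so that the letters that these factors read can be looked for in them directly. Each is the 250 bases before the annotated start from RefSeq (GRCh38.p14), 5′ to 3′ on the strand of the gene, with capitals marking, on either strand, CCAAT, the GC box GGGCGG, the E box CACGTG and the sterol regulatory element TCACNCCAC. EBP lies at chrX:48521558-48521807 on the plus strand, SC5DL at chr11:121292521-121292770 on the plus strand, SREBF1 at chr17:17836987-17837236 on the minus strand, FADS2 at chr11:61815953-61816202 on the plus strand and SCD at chr10:100346983-100347232 on the plus strand. SREBF2, at chr22:41832855-41833104 on the plus strand, is added as the only member whose window holds TCACNCCAC.
EBP: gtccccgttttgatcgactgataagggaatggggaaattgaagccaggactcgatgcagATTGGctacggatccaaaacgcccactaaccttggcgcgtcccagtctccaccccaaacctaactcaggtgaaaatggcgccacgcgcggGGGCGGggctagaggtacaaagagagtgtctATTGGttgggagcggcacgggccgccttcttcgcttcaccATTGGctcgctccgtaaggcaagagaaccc
SC5DL: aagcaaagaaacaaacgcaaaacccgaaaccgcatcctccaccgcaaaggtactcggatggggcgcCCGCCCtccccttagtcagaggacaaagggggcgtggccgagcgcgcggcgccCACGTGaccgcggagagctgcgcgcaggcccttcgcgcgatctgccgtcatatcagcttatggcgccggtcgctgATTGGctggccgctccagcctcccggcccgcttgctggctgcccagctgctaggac
SREBF1: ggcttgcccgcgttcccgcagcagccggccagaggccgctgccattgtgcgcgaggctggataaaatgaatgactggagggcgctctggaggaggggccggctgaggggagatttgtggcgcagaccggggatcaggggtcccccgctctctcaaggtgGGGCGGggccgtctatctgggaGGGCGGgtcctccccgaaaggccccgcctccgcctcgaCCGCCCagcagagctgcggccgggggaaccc
FADS2: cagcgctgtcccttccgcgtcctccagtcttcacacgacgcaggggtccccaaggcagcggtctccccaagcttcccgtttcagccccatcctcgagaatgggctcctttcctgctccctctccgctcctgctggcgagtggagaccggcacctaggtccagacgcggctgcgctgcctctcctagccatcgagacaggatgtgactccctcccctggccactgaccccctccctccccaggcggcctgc
SCD: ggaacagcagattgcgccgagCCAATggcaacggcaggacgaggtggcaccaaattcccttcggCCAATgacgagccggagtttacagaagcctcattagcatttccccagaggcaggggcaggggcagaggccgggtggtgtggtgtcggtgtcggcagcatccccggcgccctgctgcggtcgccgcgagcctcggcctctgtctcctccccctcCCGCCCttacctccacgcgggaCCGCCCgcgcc
SREBF2: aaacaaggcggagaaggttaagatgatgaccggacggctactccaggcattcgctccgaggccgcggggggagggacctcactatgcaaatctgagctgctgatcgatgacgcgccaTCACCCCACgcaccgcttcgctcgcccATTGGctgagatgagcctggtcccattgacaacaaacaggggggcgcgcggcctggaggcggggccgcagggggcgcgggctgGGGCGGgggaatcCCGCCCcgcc

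Promoter windows were matched for 28 of the 32 members, with 1 window per member. Any other annotated starts of a member were not searched. CCAAT was in 18 of them (64.3%), against 32.0% of all 35116 promoter windows of that length. GGGCGG was in 26 (92.9%), against 42.6% of all. CACGTG was in 3 (10.7%), among them SC5DL, against 6.34%, and TCACNCCAC was in 1 (3.57%), against 0.883%. EBP and SC5DL, which moved in opposite directions, both hold CCAAT and GGGCGG. The SREBF1 window holds GGGCGG 3 times and no CCAAT, and the FADS2 window used here, all in lower case, holds none of the 4 motifs. This describes that window only, and not other starts of FADS2. A match describes the letters of the window and does not show that a factor binds there.

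Before the results, the labels were checked against the arrays. TGFB1I1 itself was not lower in the RNA labelled sh-S1 or sh-S2. Its log2 ratios over Ctrl were -0.16 with sh-S1 in Cy5 and 0.12 in Cy3, and -0.11 with sh-S2 in Cy5 and 0.28 in Cy3, with a mean of 0.03 (limma adjusted p = 0.855). The knockdown was therefore not seen in these RNAs by the 1 TGFB1I1 probe on the array, and directions below are those of the RNAs so labelled. The authors report checking the knockdown clones by PCR and Western blot. The log2 intensity of the TGFB1I1 probe was 8.22 in the SKOV3 Ctrl and 12.78 in the A2780s Ctrl, on separate slides. The A2780s value had an SD of 1.33 over its 2 arrays. For the protein, by Western blot, the paper describes the opposite order, strong in SKOV3 and rather low in A2780s. In A2780s the ratios were 4.05 and 2.60, with a mean of 3.33, higher in the clone on both arrays.

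Markers of the cell types that such samples could hold also moved in SKOV3. Of 5 epithelial markers 3 fell, with mean log2 ratios of -2.14 for KRT8, -3.52 for KRT18 and -2.55 for KRT19, while EPCAM and CDH1 were above background on only 2 of 4 Ctrl arrays and were not tested. The Müllerian marker PAX8 fell by 3.58, and of 6 fibroblast markers COL3A1 rose, by 3.65. None of 4 leukocyte and 3 endothelial markers was called. In A2780s, KRT18 was the 1 marker called, with ratios of 0.54 and 0.65, higher in the clone. Their part in the lipid results was not tested. The dyes were also uneven in SKOV3, where 88.8% to 94.5% of probes were above background in Cy3 and 43.7% to 63.6% in Cy5, against 74.3% to 88.0% in A2780s. Across probes the dye-swapped ratios correlated at 0.605 for sh-S1 and 0.606 for sh-S2, and at 0.490 for pCMV-Hic-5. The 2 clones correlated at 0.892 in Cy5 and 0.896 in Cy3, where their ratios share the Ctrl RNA and the dye orientation. The values of all arrays are therefore given for each member called.

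In the SKOV3 clones, 5 of the 31 members tested rose at least 2-fold with an adjusted p of at most 0.05, and 1 fell. EBP, the SREBP gene SREBF1 and the fatty acid genes FADS2, SCD and ELOVL6 rose, and SC5DL fell. That is 16.1% of the members higher and 3.23% lower, where 3.45% of all 18739 genes tested were called higher and 4.47% lower. The median log2 ratio of the members was 0.27, against 0.01 for all genes. Above 0 lay 22 members and below it 9, where 51.1% of all genes lay above 0. By the adjusted p alone, 14 of the 31 members passed (45.2%), against 32.8% of all genes. Of those short of 2-fold, 6 were higher (PMVK, FDFT1, DHCR7, TM7SF2, INSIG1 and SCAP) and 2 were lower (MVK and LSS). On every one of the 4 arrays 13 members were higher than Ctrl and 2 were lower, and 16 had ratios of both signs. For 23 of the 25 members not called, the 95% interval of the mean lay within 2-fold in both directions. The exceptions were PMVK and TM7SF2, whose intervals reached 1.14 and 1.23 on the log2 scale. All these intervals leave out the spread of the 1 Ctrl RNA and hold for this processing only, so they do not exclude a larger change. In intensities processed by the scanner software some uncalled members lay further from 0, such as HSD17B7 at 0.83 in place of 0.30.

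**Figure D1:**
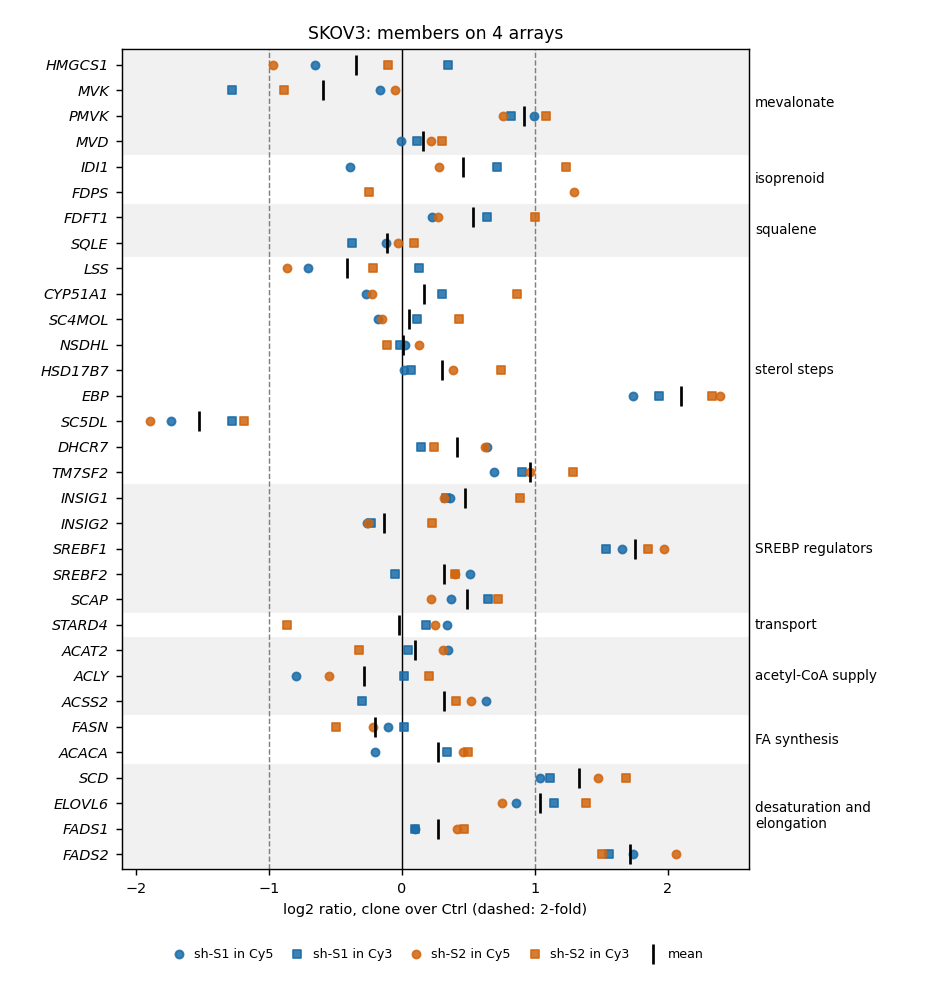
Log2 ratio of SKOV3 clone over Ctrl (horizontal axis) for each of the 32 members, ordered by role, with 1 symbol per array for sh-S1 and sh-S2 in each dye and a bar at the mean of the clones, except for FDPS, which has values from sh-S2 only. EBP, SREBF1, FADS2, SCD and ELOVL6 lie above 0 on all 4 arrays and SC5DL below 0 on all 4, while the mevalonate and squalene genes lie closer to 0.

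The sterol steps held the highest and the lowest ratio of all members. EBP, the sterol isomerase that moves a double bond in the sterol ring late in cholesterol synthesis, had log2 ratios of 1.73 and 1.93 in sh-S1 (Cy5 and Cy3) and 2.39 and 2.33 in sh-S2. All 4 values were well above 0 and the values of sh-S2 were the higher ones. The mean was 2.10 ± 0.37 (SD, n = 2 clones; SE 0.14), a 4.28-fold rise (limma adjusted p = 9.15e-05). SEs are those of limma, in which the variance of a probe is drawn toward a value shared by all probes. SC5DL, the sterol desaturase that introduces a double bond shortly after the EBP step, had ratios of -1.73 and -1.27 in sh-S1 and -1.89 and -1.19 in sh-S2. All 4 values were below 0, and in each clone the Cy5 array gave the lower one. Its mean of -1.52 ± 0.03 (SD, n = 2 clones; SE 0.09) was a 2.87-fold fall (limma adjusted p = 6.47e-05). Neighbouring steps of the same route thus had RNA levels that moved in opposite directions.

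The other sterol enzymes were not called, and their median together with EBP and SC5DL was 0.17 over 9 genes. TM7SF2, a sterol reductase of the C14 double bond, came nearest, with ratios of 0.69 and 0.91 in sh-S1 and 0.96 and 1.29 in sh-S2. Its mean was 0.96, just short of 2-fold (limma adjusted p = 0.00102). The second TM7SF2 probe was at 0.14 (limma adjusted p = 0.355), and the mean over both probes was 0.55. DHCR7, the reductase of the last step of one branch, had a mean of 0.41 (limma adjusted p = 0.0157), and LSS, which closes squalene epoxide into lanosterol, a mean of -0.42 (limma adjusted p = 0.0240). The LSS ratios were of both signs, with -0.70 and 0.13 in sh-S1 and -0.86 and -0.22 in sh-S2. Its other probes were at -0.11, -0.004 and -0.15, the last not tested. The means of CYP51A1, SC4MOL, NSDHL and HSD17B7, which act on the methyl groups of the ring, lay between 0.01 and 0.30 and did not pass the test.

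None of the mevalonate, isoprenoid or squalene genes reached the threshold. PMVK, the second kinase of the mevalonate route, had ratios of 0.99 and 0.82 in sh-S1 and 0.76 and 1.08 in sh-S2, all above 0. Its mean was 0.91 (limma adjusted p = 0.000550). MVK, the kinase before it, had ratios of -0.17 and -1.28 in sh-S1 and -0.05 and -0.89 in sh-S2, with a mean of -0.60 (limma adjusted p = 0.00583). All MVK values of this probe were below 0, but those with the clone in Cy5 were close to 0. The other MVK probe was not tested and was at 0.03. HMGCS1, which makes HMG-CoA, showed the opposite split between dyes, with -0.65 and 0.34 in sh-S1 and -0.97 and -0.11 in sh-S2, and did not pass (mean -0.34, limma adjusted p = 0.0704). MVD, the decarboxylase that follows PMVK, was at 0.16, and IDI1, the isomerase of isopentenyl pyrophosphate, was at 0.46, and neither passed the test.

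FDPS, which makes farnesyl pyrophosphate, was not tested in SKOV3 because its spots carry outlier flags on both sh-S1 arrays. In sh-S2 it read 1.30 in Cy5 and -0.25 in Cy3, opposite signs from the same pair of RNAs. FDFT1, which joins farnesyl units into squalene, had a mean of 0.53 (limma adjusted p = 0.00766), and SQLE, which oxidizes squalene, had a mean of -0.11 (limma adjusted p = 0.518).

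Among the 5 regulators only SREBF1 was called. Its ratios were 1.65 and 1.53 in sh-S1 and 1.97 and 1.85 in sh-S2, close together and all above 0. The mean was 1.75 ± 0.22 (SD, n = 2 clones; SE 0.11), a 3.37-fold rise (limma adjusted p = 7.69e-05). SREBF2 had a mean of 0.31 and did not pass (limma adjusted p = 0.0518). SCAP, which escorts the SREBPs, and INSIG1, which retains them, passed the test short of 2-fold with means of 0.49 (limma adjusted p = 0.00784) and 0.48 (limma adjusted p = 0.0145), and INSIG2 was at -0.13 (limma adjusted p = 0.404). STARD4, a carrier of cholesterol between membranes, was at -0.02 with ratios on both sides of 0.

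The desaturases and the elongase held 3 of the 5 members that rose, and the median of their 4 genes was 1.18. FADS2, the delta-6 desaturase that starts the synthesis of long polyunsaturated fatty acids, had ratios of 1.74 and 1.56 in sh-S1 and 2.06 and 1.51 in sh-S2. Its mean was 1.71 ± 0.10 (SD, n = 2 clones; SE 0.10), a 3.28-fold rise (limma adjusted p = 4.51e-05). FADS1, the delta-5 desaturase that acts after FADS2 and is its neighbour on chromosome 11, had a mean of 0.27 and did not pass (limma adjusted p = 0.125). SCD, the delta-9 desaturase that makes monounsaturated fatty acids, had ratios of 1.04 and 1.12 in sh-S1 and 1.48 and 1.68 in sh-S2. All 4 were above 0, and those of sh-S2 were the higher ones. The mean was 1.33 ± 0.35 (SD, n = 2 clones; SE 0.13), a 2.51-fold rise (limma adjusted p = 0.000554).

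ELOVL6, the elongase of saturated and monounsaturated chains, had ratios of 0.86 and 1.14 in sh-S1 and 0.75 and 1.39 in sh-S2. All were above 0, and only the Cy3 arrays reached 2-fold. The mean was 1.03 ± 0.05 (SD, n = 2 clones; SE 0.09), a 2.05-fold rise (limma adjusted p = 0.000343), and it was no longer called with the clone in Cy5 only (0.81), from sh-S1 alone (0.999) or as the mean over both its probes (0.67). In intensities processed by the scanner software it read 2.26. By their brightest probes, ELOVL6 was thus the member just inside the 2-fold threshold and TM7SF2 the one just outside it. The enzymes that build the chain before these steps were not called. FASN, the fatty acid synthase, was at -0.20 (limma adjusted p = 0.233) and ACACA, the acetyl-CoA carboxylase, at 0.27 (limma adjusted p = 0.145). Both probes were above background on 1 of 2 sh-S1 arrays, FASN also on 1 of 2 sh-S2 arrays, and in the processed intensities they read -0.57 and 0.74. The genes that supply or condense acetyl-CoA, ACLY, ACSS2 and ACAT2, lay between -0.28 and 0.32 and none passed the test.

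Of the 6 members called in SKOV3, EBP has 1 probe and the other 5 have more, and their probes gave unequal ratios. All probes of these 5 genes pointed the same way as the brightest one, but the sizes differed. In SREBF1 the second probe had a mean of 0.43 (limma adjusted p = 0.0139). In FADS2 the second probe was at 0.35 (limma adjusted p = 0.0287), and in ELOVL6 it was at 0.31 and was not tested. Of the other SCD probes, one was at 0.98 (limma adjusted p = 0.000480) and one at 0.08, not tested. SC5DL fell on a second probe too, by 1.89 (limma adjusted p = 3.8e-05), and was at -0.37 on the third. With the mean over the tested probes of a gene, the calls of all 6 members stood, with SREBF1 at 1.09 and FADS2 at 1.03. With the probes that were not tested averaged in as well, SCD (0.79) and ELOVL6 (0.67) fell short of 2-fold and the other 4 stood.

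The distance between probes also differed between ways of processing the intensities. With a normexp offset of 10 in place of 50, the second SREBF1 probe read 0.83 beside 1.84 for the brightest, the second ELOVL6 probe 0.68 beside 1.55, and the third SC5DL probe -0.86 beside -1.82. In the intensities processed by the scanner software, where background and dye normalization differ too, the second SREBF1 probe read 1.49 beside 1.95 for the brightest, the second ELOVL6 probe 2.07 beside 2.26, and the third SC5DL probe -1.97 beside -2.05. The second FADS2 probe (0.54 beside 1.96) and the third SCD probe (0.11 beside 1.89) stayed apart there too. The cause was not tested. The brightest probes lie, in hg19, at chrX:48386942-48387001 (EBP), chr11:121178401-121178460 (SC5DL), chr17:17715419-17715478 (SREBF1), chr11:61634754-61634813 (FADS2), chr10:102123917-102123976 (SCD) and chr4:110971171-110971230 (ELOVL6). Exons and UTRs were not assigned, since no annotation of that build was used here.

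**Figure D2:**
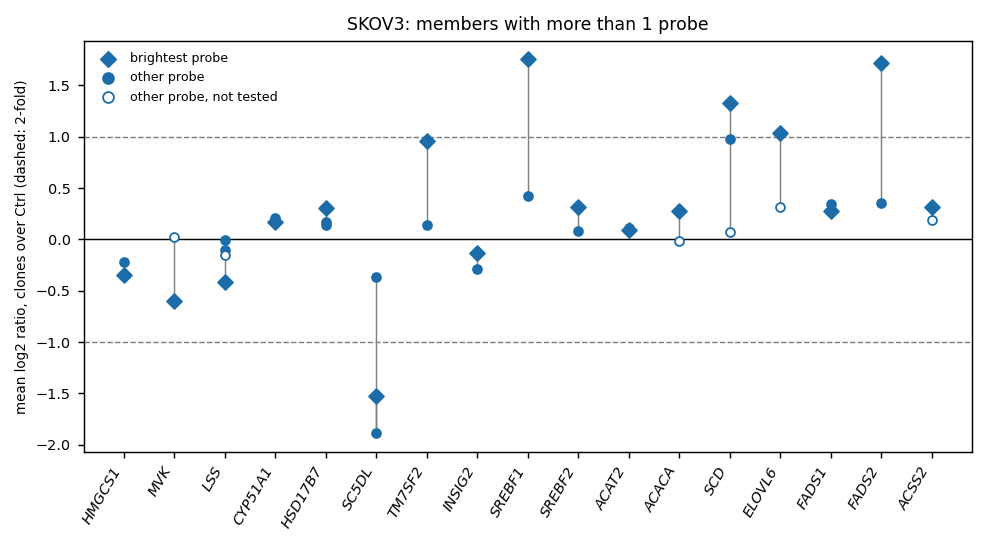
Mean log2 ratio of SKOV3 clones over Ctrl (vertical axis, dashed lines at 2-fold) for every probe of the 17 members with more than 1 probe, with diamonds for the brightest probe and circles for the others, open where a probe was not tested. The probes of SREBF1 (1.75 and 0.43) and FADS2 (1.71 and 0.35) lie far apart, and 2 of the 3 SC5DL probes lie below -1.

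The channel levels show the RNAs behind these ratios, as log2 intensity after normalization of each channel, and they are set side by side without a test. EBP read 10.38 in the SKOV3 Ctrl, 12.19 in sh-S1 and 12.76 in sh-S2, and 12.41 in the A2780s Ctrl and 12.28 in pCMV-Hic-5. SREBF1 read 11.11 in the SKOV3 Ctrl, 12.64 in sh-S1 and 13.09 in sh-S2, and 13.16 and 13.12 in the A2780s Ctrl and clone. SC5DL ran the other way, with 11.32 in the SKOV3 Ctrl, 9.84 and 9.76 in sh-S1 and sh-S2, and 9.79 and 9.73 in A2780s. The distance of the SKOV3 Ctrl from sh-S1 and sh-S2 follows from the calls by which these genes were chosen. In the same genes both A2780s RNAs read closer to the SKOV3 clones than to the SKOV3 Ctrl.

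SCD was also lowest in the SKOV3 Ctrl, at 9.56, against 10.60 in sh-S1, 11.18 in sh-S2, 11.47 in the A2780s Ctrl and 10.91 in pCMV-Hic-5. ELOVL6 read 8.41 in the SKOV3 Ctrl and from 9.29 to 9.51 in the other RNAs, but its level varied by up to 1.00 (SD) between the arrays of sh-S2. FADS2 differed in order, with 11.57 in the SKOV3 Ctrl, 12.91 in sh-S1, 13.66 in sh-S2, and 11.72 and 11.97 in A2780s. Each cell line was hybridized on a slide of its own, and the slide and the line cannot be told apart.

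**Figure D3:**
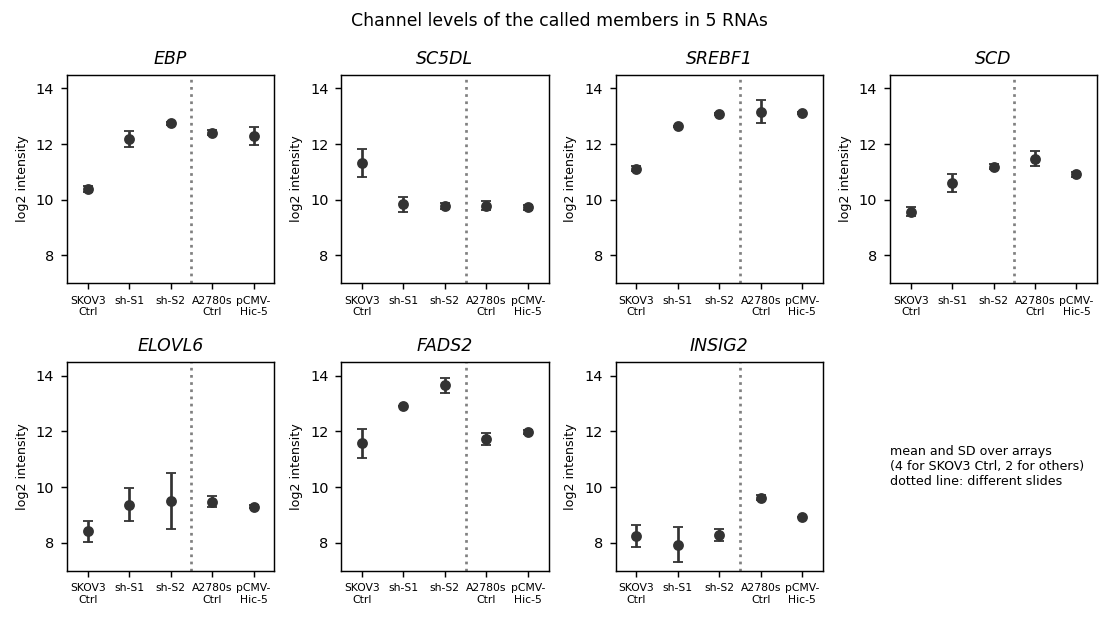
Log2 intensity (vertical axis, after loess and Aquantile normalization) of the 7 members called in either cell line in 5 RNAs, as mean and SD over arrays, 4 for the SKOV3 Ctrl and 2 for each other RNA, with a dotted line between the slides. EBP, SREBF1 and SCD are lowest and SC5DL highest in the SKOV3 Ctrl.

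In A2780s cells overexpressing Hic-5, all 32 members were measured and 1 was called. A gene was called there when its mean ratio reached 1.5-fold with the same direction on both arrays, with no test, because there is 1 pair of RNAs. By this rule 0 members were higher and 1 was lower, where 3.42% of all 22018 genes were called higher and 1.43% lower. The median log2 ratio of the members was 0.03, against -0.01 for all genes. On both arrays 14 members were higher and 9 lower, and 9 had opposite signs on the 2 arrays.

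INSIG2, the second retention protein of the SREBPs, was the member called lower, with log2 ratios of -0.75 with the clone in Cy5 and -0.63 in Cy3. Both arrays gave much the same value, and the mean of -0.69 is 1.62-fold lower. The brightest INSIG2 probe spans chr2:118864711-118865861 (hg19). The other INSIG2 probe read -0.46 and -0.24, and the mean over both probes, -0.52, did not reach 1.5-fold. INSIG2 levels were 9.61 in the A2780s Ctrl and 8.92 in the clone, and 8.24 in the SKOV3 Ctrl.

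The largest ratios below the threshold were those of MVD, SCD and HSD17B7. MVD read 0.68 and 0.45, with a mean of 0.57, and HSD17B7, which reduces a keto group during demethylation of the sterol ring, read 0.53 and 0.45, with a mean of 0.49. SCD read -0.82 and -0.32, with a mean of -0.57. Of the other genes called in SKOV3, EBP read -0.30 and 0.05, SREBF1 -0.36 and 0.27, SC5DL -0.23 and 0.11 and ELOVL6 -0.36 and 0.00, each with values of both signs or at 0, and FADS2 read 0.15 and 0.35. No test compares the 2 cell lines, so these values are given side by side only.

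**Figure D4:**
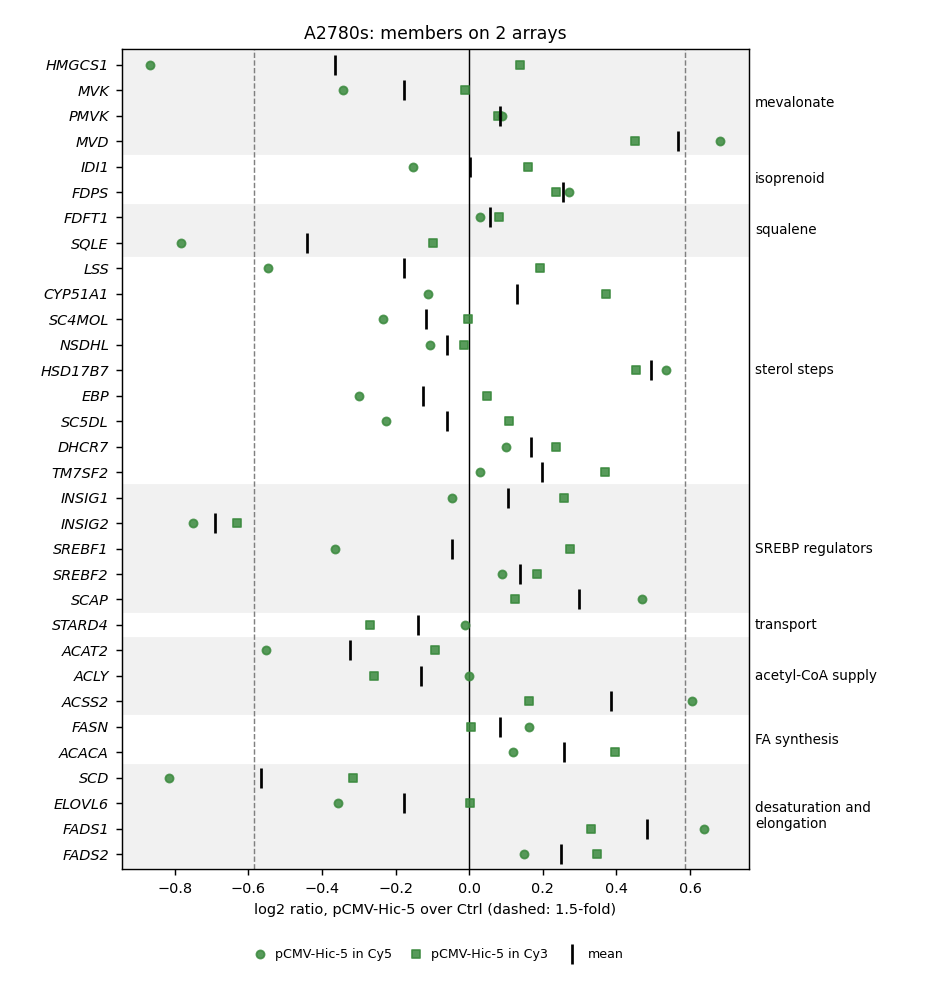
Log2 ratio of pCMV-Hic-5 over Ctrl (horizontal axis) for each of the 32 members in A2780s, ordered by role, with 1 symbol per dye-swapped array and a bar at the mean. INSIG2 lies below the 1.5-fold line on both arrays, and every other mean lies within 1.5-fold.

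Among 49 other genes of sterol and fatty acid handling, 48 were tested in SKOV3, and 5 rose (10.4%) and 2 fell (4.17%), with a median log2 ratio of -0.02. Of all genes tested there, 3.45% were called higher and 4.47% lower. LIPA, the lysosomal acid lipase that frees cholesterol and fatty acids from lipoprotein esters, had ratios of 5.30 and 3.76 in sh-S1 and 4.54 and 3.30 in sh-S2. Its mean was 4.23 (SE 0.15), above that of every synthesis gene. Of 9 genes of fatty acid oxidation 3 rose. ACAA2, the mitochondrial thiolase, had ratios of 2.16 and 3.10 in sh-S1 and 3.34 and 3.74 in sh-S2, with a mean of 3.08 (SE 0.20). Its Ctrl was above background on 3 of 4 arrays, so it was tested through the clones, where it is high. The mean was 5.10 in the processed intensities and 2.00 over its 2 probes, where it was still called.

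The other genes of oxidation that rose lay close to the threshold. ACADM, the medium-chain acyl-CoA dehydrogenase, had ratios of 0.47 and 1.08 in sh-S1 and 0.80 and 1.93 in sh-S2, with a mean of 1.07 (SE 0.15). CPT2, which passes acyl groups into the mitochondrial matrix, had 0.74 and 1.25 in sh-S1 and 0.71 and 1.45 in sh-S2, with a mean of 1.03 (SE 0.09). Neither was called with the clone in Cy5 only (0.63 and 0.72) or from sh-S1 alone (0.77 and 0.99), and CPT2 was not called with median centring (0.89) either.

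PLIN2, a coat protein of lipid droplets, had ratios of 1.32 and 0.78 in sh-S1 and 1.55 and 1.21 in sh-S2. Its mean was 1.22 (SE 0.11), it was 2.72 in the processed intensities, and it was just short of 2-fold with the clone in Cy3 only (0.999). ELOVL7, an elongase, had -1.003 and -1.87 in sh-S1 and -1.18 and -1.92 in sh-S2, a fall of 1.49 on the log2 scale (SE 0.10). It was above background on 1 of 2 arrays of each clone and read -3.47 in the processed intensities. ME1, the cytosolic malic enzyme that supplies NADPH, had -1.43 and -1.38 in sh-S1 and -1.06 and -0.73 in sh-S2, with a mean of -1.15 (SE 0.14), and was not called from sh-S2 alone (-0.90). With probes that were not tested averaged in, ELOVL7 (-0.82) and ME1 (-0.74) were not called.

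In A2780s, 46 of the 49 were measured, and 3 were called higher (6.52%) and 1 lower (2.17%), with a median of 0.08. Of all genes in that line, 3.42% were called higher and 1.43% lower. MYLIP, a ubiquitin ligase induced by LXR, read 0.90 and 0.86, ME1 0.83 and 0.67, and CPT2 0.82 and 0.35. LIPA read -1.11 and -0.60, a mean of -0.86. LIPA and ME1 were thus called in both lines, in opposite directions, although ME1 was not called in A2780s with the mean over its probes (0.53). CPT2 was called higher in both, but its A2780s mean of 0.59 lay just above 1.5-fold. It was not called there with processed intensities (0.56), the deposited values (0.56), the clone in Cy3 only (0.35) or 1.5-fold on each array. None of the 5 genes of the isoprenoid branches was called in either line.

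**Figure D5:**
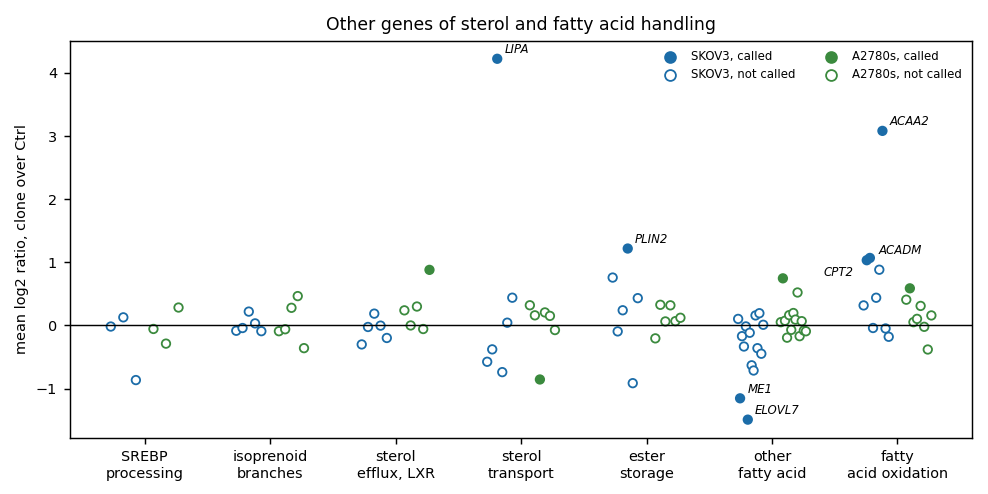
Mean log2 ratio of clone over Ctrl (vertical axis) for 49 other genes of sterol and fatty acid handling by group, in SKOV3 (blue) and A2780s (green), filled where called, with names on those called in SKOV3. LIPA and ACAA2 stand highest in SKOV3, and the isoprenoid genes hold no called gene.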

How the data were processed

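Gene expression was measured in 5 RNAs of SKOV3 and A2780s clones on 6 Agilent 2-colour arrays. The authors deposited the spot intensity of each dye as written by the scanner software (Agilent Feature Extraction, 8.5.1.1 in the submitters' processing notes), with local background and no further normalization, and log10 ratios (Cy5 over Cy3) taken from intensities that the software had processed. The series values that the authors deposited are the same log10 ratios after rounding, with dye swaps not turned.

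In R 4.3.3 with limma 3.58.1 and data.table (version 1.17.8), mean intensities were background-corrected by normexp (offset 50). Spots with a background outlier flag or a local background over 1000 were kept out of its parameter fit, and the latter, 40 spots on 1 A2780s array, were left out. Ratios were normalized within arrays by loess, control spots and 121 to 362 feature outlier spots per array were removed, and the spots of each probe were averaged. All ratios are log2 of clone over Ctrl. A probe was tested if well above background in Ctrl on all arrays of the line, or in a clone on both its arrays (24956 probes in SKOV3, 30530 in A2780s).

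In SKOV3 the dye swaps of a clone were averaged and the 2 clones tested against 0 by lmFit and eBayes, with Benjamini-Hochberg adjustment over all probes, at 0.05 and 2-fold. The Ctrl is a single RNA whose own spread is left out, so p-values measure only spread between the clones. For each probe eBayes draws that spread toward a value shared by all probes (5.55 prior degrees of freedom). SEs and p-values thus rest largely on the shared value, and an SE can exceed the SD of its 2 clones. In A2780s a probe was called at 1.5-fold in the same direction on both arrays. Precision is limited by the number of arrays. Values are given per array for members called in either line and for the 3 largest uncalled ones in each, and of the other pathway genes for those called. FDPS, HMGCS1 and LSS, the other members given per array, and the A2780s values of genes called in SKOV3 were added after their values were seen. The members and gene lists were chosen with earlier results of these data known. Alternatives were the processed intensities, an offset of 10, normexp fitted on all spots, median centring, the deposited values, each dye orientation, the mean over the tested probes of a gene, other filters and leaving out a clone. Keeping spots with a feature outlier flag, and averaging all probes of a gene whether tested or not, were chosen after seeing the data.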

Additional observations from a re-analysis of the deposited data

How the results depend on the processing

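In SKOV3, EBP (1.83 to 2.54), SREBF1 (1.09 to 1.95), FADS2 (1.03 to 1.96) and SC5DL (-2.05 to -1.23) kept their direction and call under each of 13 alternatives. SCD (0.79 to 1.89) was not called with all probes averaged, tested or not, and ELOVL6 (0.67 to 2.26) was not called there, with the clone in Cy5 only or from sh-S1 alone, so that averaging left 3 members higher in SKOV3, 0 other pathway genes lower there and 0 members lower in A2780s. TM7SF2 was called with processed intensities (1.26), the deposited values (1.26), an offset of 10 (1.13), the clone in Cy3 only (1.10) and sh-S2 alone (1.12), and MVK with the clone in Cy3 only (-1.08), which gave 2 members lower. With the mean over its tested probes TM7SF2 was at 0.55. FDPS, with outlier spots kept, averaged 0.54 and was not called.

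With processed intensities 1971 SKOV3 probes were higher and 2355 lower, with 8 and 5 other pathway genes, and in A2780s 693 probes were lower. With the deposited values these were 1963 and 2353, 8 and 5, and 691. With an offset of 10 they were 1179 and 1645 in SKOV3, with 4 other pathway genes lower. Median centring gave 1579 SKOV3 probes lower and 4 other pathway genes lower. Under each of these 4 settings 1 member, MVD (0.60 to 0.64), was higher in A2780s. With the clone in Cy3 only, 1216 SKOV3 probes were higher, 4 other pathway genes were lower, and 210 A2780s probes were lower. With the clone in Cy5 only, 3 other pathway genes were higher in SKOV3 and TGFB1I1 was at -0.14 there. In A2780s that setting gave 1795 probes higher and 1516 lower, 5 and 2 other pathway genes, and 3 members higher (MVD, FADS1 and ACSS2) and 4 lower (INSIG2, HMGCS1, SQLE and SCD). The mean over tested probes left 0 members lower in A2780s, and 1.5-fold on each array left 495 probes higher and 123 lower. The cause of these differences was not tested.

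Leaving out 1 clone leaves 1 pair of RNAs, so calls then rest on fold alone. Members higher in SKOV3 ranged from 4 to 6, other pathway genes higher from 3 (without sh-S2) to 5, and TGFB1I1 from -0.021 (without sh-S2) to 0.083. Clone and Ctrl were paired on each array through their ratio. No further pairing was possible because the labels give the SKOV3 clones and the Ctrl no replicate numbers, and the pairs of arrays are dye swaps of the same RNAs. Signal in Cy5 limits the dim probes in SKOV3.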
